A study of Rattus norvegicus with 15 samples.

Results

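The lysosomal cathepsins described here are the 9 genes Ctsa, Ctsb, Ctsc, Ctsd, Ctsh, Ctsk, Ctsl, Ctss and Ctsz, chosen by symbol from the 22436 genes of the deposited table. RNA-seq was run on prostate tissue of SD rats (Sprague-Dawley, an outbred laboratory strain) in 3 groups of 5 samples, whose labels carry the numbers 6 to 10. The study asked how low-intensity pulsed ultrasound (LIPUS) acts on inflammation in a rat model of chronic prostatitis with pelvic pain. Control rats and Model rats both have the treatment field "No", and how the model was made is not given in the sources used here. LIPUS samples are model prostates treated with ultrasound for 4 weeks, at an intensity given as 1.0 W/cm2 in the sample titles and as 1.5 W/cm2 in the treatment field. Sex, age and lobe are not stated. The labels do not state that each sample is a different animal. The p-values therefore reflect how far these samples scatter, and part of that scatter may be technical.

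Cathepsins are proteases that are made as inactive precursors, carried to the lysosome by mannose 6-phosphate receptors or sortilin, and activated there at acid pH. Most belong to the papain family of cysteine proteases (Ctsb, Ctsc, Ctsh, Ctsk, Ctsl, Ctss and Ctsz), while Ctsd is an aspartic protease and Ctsa a serine carboxypeptidase. Some are found in nearly every cell, and others are best known from particular cells: Ctss from antigen-presenting cells and macrophages, Ctsk from osteoclasts and matrix-degrading stromal cells.

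All values are FPKM (fragments per kilobase, relative to library size), as deposited. Libraries held 29675962 to 36402094 reads, and the 9 cathepsins were covered by between 34 reads (Ctsk in Model library 9) and 18539 reads (Ctsd). FPKM divides by the whole library, and the share of reads from the 13 mitochondrially encoded genes was 3.75% to 4.69% in Control, 23.5% to 43.5% in Model and 43.0% to 83.3% in LIPUS (highest in LIPUS library 10). A larger mitochondrial share leaves fewer reads for nuclear genes, and the median of 12490 tested genes changed by -0.90 on the log2 scale for Model against Control, -0.60 for LIPUS against Model and -1.48 for LIPUS against Control. The 9 cathepsins are therefore described as deposited and again after division of each library by its median-of-ratios factor, called scaled FPKM. On scaled FPKM these medians were -0.15, -0.02 and -0.15. Some other genes are given on 1 scale, which is named beside them. The ventral secretory genes Scgb1d2, Scgb1d4 and Scgb2a1 took 10.7% to 17.6% of reads in Control, 0.0199% to 1.35% in the Model libraries other than 7, 5.16% in Model library 7 and 0.269% to 9.63% in LIPUS. The dorsolateral genes Pbsn and Msmb took 0.286% to 4.57% in Control, 6.86% to 12.9% in the Model libraries other than 7, 0.0238% in Model library 7 and 0.229% to 3.14% in LIPUS. The log2 ratio of the ventral to the dorsolateral share was thus 1.22 to 5.88 in Control, -9.25 to -2.77 in those 4 Model libraries, 7.76 in Model library 7 and -0.71 to 4.46 in LIPUS. These lobe genes moved with the groups, Model library 7 stood apart from its group on the side of Control, and their part in the changes below was not tested. The 4 seminal vesicle genes Svs4, Svs5, Svs6 and Semg1 summed to 471 to 93586 FPKM in Control, 46.3 to 92806 in Model and 297 to 19703 in LIPUS, a wide spread within each group. All 10 markers of prostate luminal cells were above 0 in each group. In whole tissue, fewer cells of a type and less RNA per cell cannot be told apart.

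Ctsk RNA was lower in Model prostates than in Control prostates on both scales, Ctsc was lower on FPKM as deposited, and Ctss was higher in LIPUS than in Model on both scales. The abundant Ctsd, Ctsl, Ctsa and Ctsh showed no call between Model and Control. Calls were made at an adjusted p under 0.05 in limma on log2(FPKM + 0.1), with all 15 libraries in 1 fit and Benjamini-Hochberg adjustment over 12490 genes. All 9 cathepsins passed the filter on low values. For Model against Control, 2 of 9 were called, both lower (Ctsk and Ctsc), where 43.1% of all tested genes were lower. On scaled FPKM 1 of 9 was lower (Ctsk), where 20.2% of all genes were. For LIPUS against Model, 1 of 9 was higher as deposited (Ctss), against 1.31% of all genes, and 3 of 9 were higher on scaled FPKM (Ctss, Ctsc and Ctsz), against 2.73%.

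For LIPUS against Control, 4 of 9 were lower as deposited (Ctsk, Ctsh, Ctsd and Ctsl), where 74.4% of all genes were lower. None of these 4 was called on scaled FPKM. There, 3 of 9 were higher (Ctss, Ctsz and Ctsb), where 11.6% of all genes were higher. The median log2 change of the 9 cathepsins was -0.57 for Model against Control, 0.28 for LIPUS against Model and -0.72 for LIPUS against Control as deposited, and 0.21, 0.93 and 0.68 on scaled FPKM. Both sets of medians lay above those of all tested genes given above. The 3 comparisons share libraries, so they are not independent of each other.

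**Figure D1:**
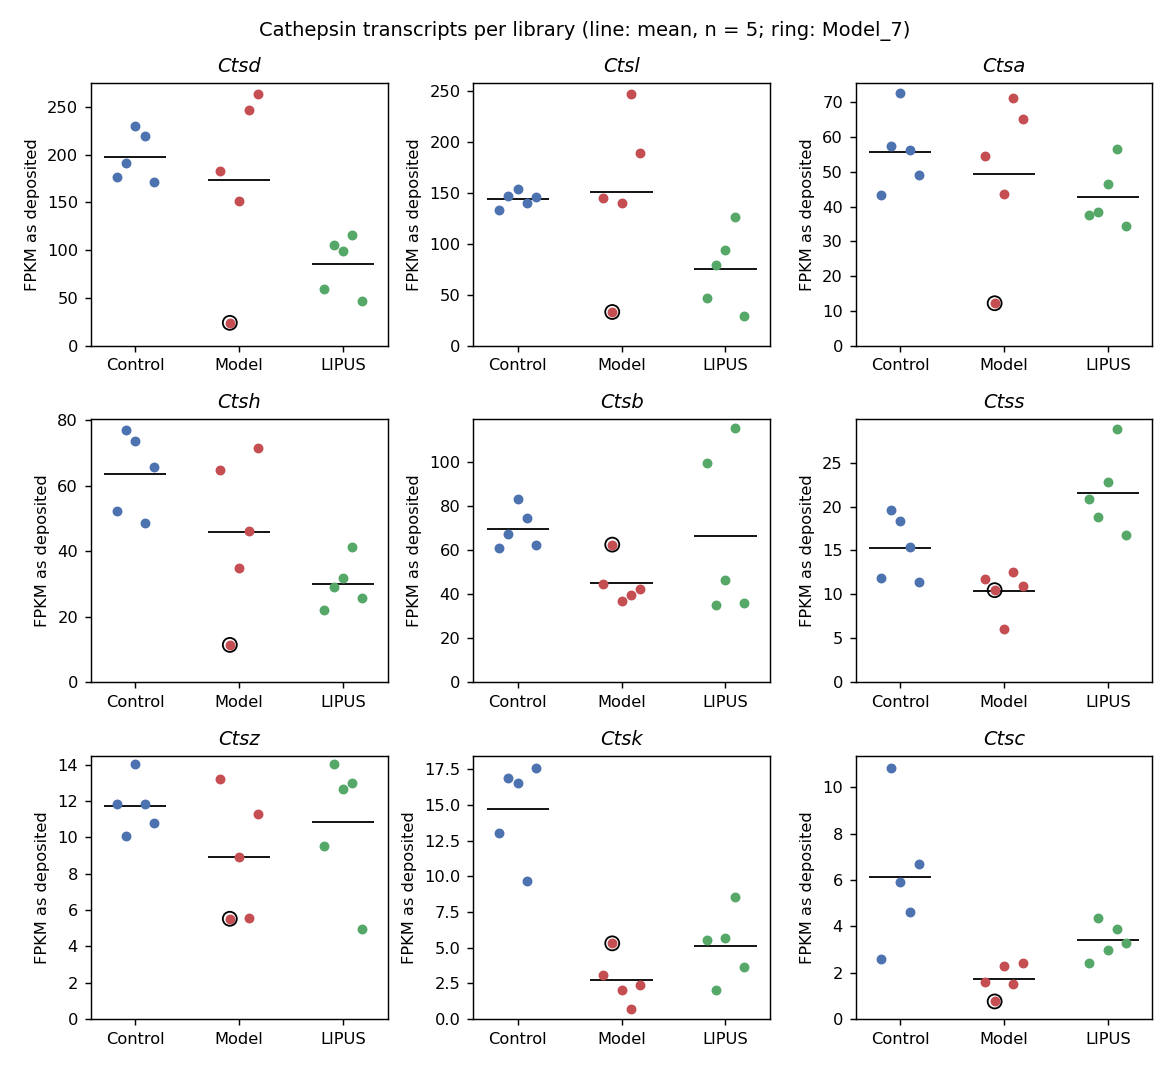
FPKM as deposited of each cathepsin (vertical axes, linear from 0) in the 5 Control, 5 Model and 5 LIPUS libraries. Points are libraries, lines are group means and the ring marks Model library 7, which lay at 23.9 FPKM for Ctsd and 33.1 FPKM for Ctsl, below every other library of its group.

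In Control prostates the order of levels per gene length was Ctsd, Ctsl, Ctsb, Ctsh, Ctsa, Ctss, Ctsk, Ctsz and Ctsc, from a mean of 198 ± 26.0 FPKM (SD, n = 5) for Ctsd to 6.13 ± 3.06 FPKM (SD, n = 5) for Ctsc. Ctsd lay above Ctsl, and Ctsl above Ctsb, in 5 of 5 Control libraries with no overlap of their ranges. The ranges of Ctsb, Ctsh and Ctsa overlapped, as did those of Ctss and Ctsk, of Ctsk and Ctsz, and of Ctsz and Ctsc. In Model and in LIPUS, Ctsd and Ctsl again had the highest means, but their ranges overlapped.

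Ctsd encodes the aspartic protease cathepsin D, a broad-acting enzyme that also activates other lysosomal precursors. Its promoter is shown because the E-box CACGTG, the core of the element bound by the lysosomal regulator TFEB, was found in it and in none of the other 7 cathepsin promoters with a RefSeq entry (Ctsb had none). In the 250 bases before the start site (RefSeq, GRCr8, chr1:206968822-206969071, minus strand), the capitals mark CACGTG at positions -157 and -10 from the start:
Ctsd promoter: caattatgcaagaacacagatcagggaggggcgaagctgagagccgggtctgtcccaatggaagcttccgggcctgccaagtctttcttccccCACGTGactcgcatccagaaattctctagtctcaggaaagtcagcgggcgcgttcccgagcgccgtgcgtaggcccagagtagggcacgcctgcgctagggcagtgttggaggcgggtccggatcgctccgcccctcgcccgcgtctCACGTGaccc
CACGTG, which reads the same on both strands, occurred in 6.42% of 33469 rat promoter windows of 250 bases before to 50 after the start, and the extended TCACGTGA, which overlaps the copy at -10, in 0.777%. Such a match is a description of the sequence.

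Ctsd stood at 177, 191, 230.2, 219.6 and 171 FPKM in Control libraries 6 to 10, at 183, 23.9, 152, 247 and 264 FPKM in Model libraries 6 to 10, and at 59.7, 105, 99.5, 116 and 47.2 FPKM in LIPUS libraries 6 to 10. All LIPUS libraries lay below all Control libraries, and 3 of 5 Model libraries lay within or above the Control range, with library 8 below it and library 7 far below it. The log2 change was -0.55 ± 0.51 (SE) for Model against Control (adjusted p = 0.387) and -0.73 ± 0.51 for LIPUS against Model (adjusted p = 0.288), neither called. For LIPUS against Control it was -1.28 ± 0.51 (adjusted p = 0.0301, limma), and 7418 genes, 59.4% of those tested, also had all LIPUS libraries below all Control libraries. On scaled FPKM the 3 changes were 0.23 ± 0.53 (adjusted p = 0.766), -0.078 ± 0.53 (adjusted p = 0.937) and 0.15 ± 0.53 (adjusted p = 0.860), none called. Without Model library 7 the scaled change of Model against Control was 0.90 (adjusted p = 0.00246) and that of LIPUS against Model -0.75 (adjusted p = 0.0134, and -1.35 with adjusted p = 0.00394 as deposited), so that both became calls.

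Ctsl encodes cathepsin L, a strong endopeptidase of the lysosome. It was steady in Control, at 134, 147, 154, 140.1 and 146 FPKM in libraries 6 to 10, and scattered in Model, at 145, 33.1, 139.7, 247 and 189 FPKM, and in LIPUS, at 47.2, 78.8, 93.8, 126 and 28.9 FPKM. Each LIPUS value was below each Control value, while Model straddled Control. Model against Control gave -0.20 ± 0.47 (SE, log2, adjusted p = 0.749, limma) and LIPUS against Control -1.12 ± 0.47 (adjusted p = 0.0383), with no call for LIPUS against Model (-0.92 ± 0.47, adjusted p = 0.155). On scaled FPKM none was called: the changes were 0.58 ± 0.46 for Model against Control (adjusted p = 0.348), -0.27 ± 0.46 for LIPUS against Model (adjusted p = 0.733) and 0.31 ± 0.46 for LIPUS against Control (adjusted p = 0.656). As with Ctsd, leaving out Model library 7 turned Ctsl into a scaled call for Model against Control, with a log2 change of 1.12 (adjusted p = 0.00274), and for LIPUS against Model, with -0.80 (adjusted p = 0.0289, and -1.40 with adjusted p = 0.00775 as deposited). The LIPUS against Control call as deposited rested on most libraries: it was lost when any Control library, LIPUS library 6 or LIPUS library 10 was left out (highest adjusted p 0.114). That of Ctsd was lost without Control library 8 or 9 or LIPUS library 6 or 10 (highest adjusted p 0.0798).

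Ctsa encodes the carboxypeptidase also called protective protein, which holds the sialidase Neu1 and a beta-galactosidase in a stable complex. It read 43.3, 57.5, 72.7, 56.3 and 49.1 FPKM in Control libraries 6 to 10, 54.7, 12.2, 43.6, 71.3 and 65.1 FPKM in Model, and 37.6, 38.3, 46.6, 56.7 and 34.5 FPKM in LIPUS. The 3 groups overlapped, and Model library 7 was the lowest of all 15. Its log2 change was -0.38 ± 0.39 (SE) for Model against Control and -0.38 ± 0.39 for LIPUS against Control, with adjusted p of 0.441 and 0.360 in limma. Both turned sign on scaled FPKM without being called, to 0.40 ± 0.44 (adjusted p = 0.510) and 1.05 ± 0.44 (adjusted p = 0.0963). Without Model library 7 both became scaled calls, at 0.90 (adjusted p = 0.0129) and 1.05 (adjusted p = 0.00558), the latter with the same log2 change. LIPUS against Model gave -0.0095 ± 0.39 as deposited (adjusted p = 0.987) and 0.64 ± 0.44 scaled (adjusted p = 0.367). Set against its partner in the same library, Ctsa was higher in LIPUS: the log2 ratio of Ctsa to Neu1 was 3.37 ± 0.11 (SD, n = 5) in Control and 4.95 ± 1.01 in LIPUS, with no overlap (exact permutation test, two-sided, p = 0.00794, adjusted p = 0.0397 over 45 ratio tests). Neu1 itself fell from 5.27 ± 0.675 to 1.74 ± 1.57 FPKM between Control and LIPUS (adjusted p = 0.00387, limma), and not on scaled FPKM (adjusted p = 0.415).

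Ctsh encodes cathepsin H, which trims proteins mainly from the amino end. It was 52.2, 77.0, 73.7, 48.7 and 65.8 FPKM in Control libraries 6 to 10, 65.0, 11.4, 35.0, 46.1 and 71.4 FPKM in Model, and 22.0, 29.1, 31.9, 41.3 and 25.6 FPKM in LIPUS. LIPUS lay wholly below Control, and Model library 7 was again the lowest of its group. LIPUS against Control gave -1.09 ± 0.40 (SE, log2, adjusted p = 0.0207, limma), against 0.34 ± 0.45 (adjusted p = 0.615) on scaled FPKM. Model against Control was not called as deposited (-0.69 ± 0.40, adjusted p = 0.161) or scaled (0.087 ± 0.45, adjusted p = 0.899). Nor was LIPUS against Model (-0.40 ± 0.40, adjusted p = 0.471, and 0.26 ± 0.45 scaled, adjusted p = 0.740). Without Model library 7, LIPUS was lower than Model as deposited (-0.83, adjusted p = 0.0296), with no call on scaled FPKM (-0.23, adjusted p = 0.564).

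**Figure D2:**
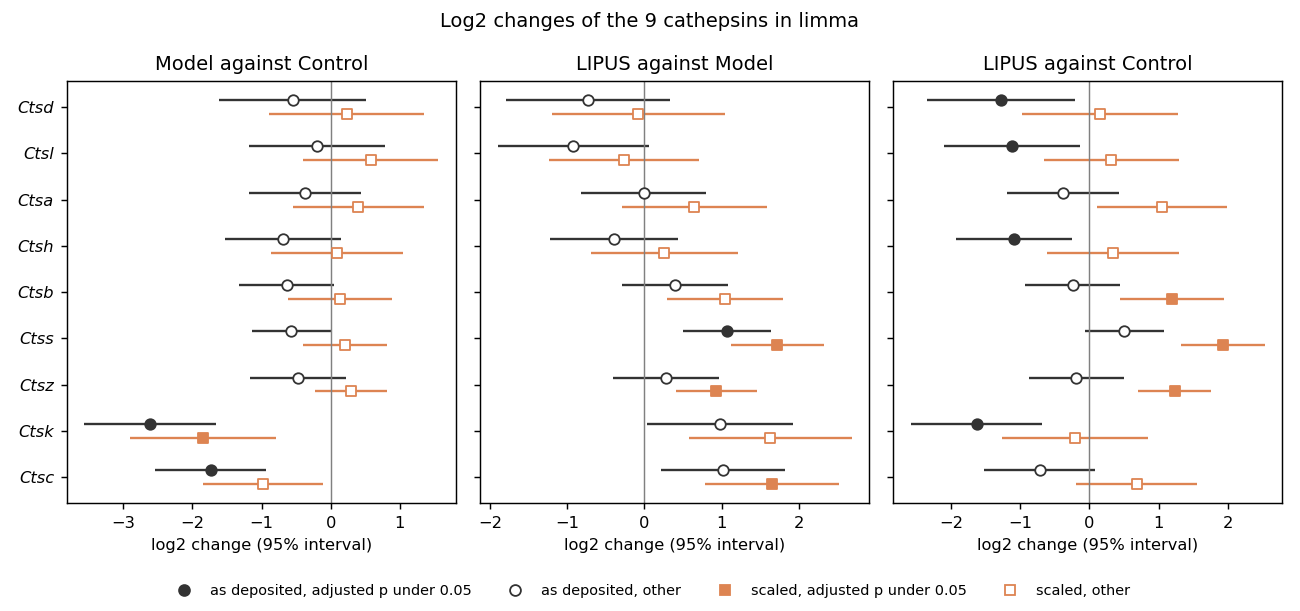
Log2 change (horizontal axes) of each cathepsin in 3 comparisons, with its 95% interval from limma, as deposited (circles) and on scaled FPKM (squares). Filled symbols have an adjusted p under 0.05: Ctsk is filled on both scales for Model against Control and Ctss on both for LIPUS against Model.

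Among the 9, Ctsk had the largest fall in Model prostates. It encodes cathepsin K, a collagen-degrading enzyme. Control libraries 6 to 10 held 13.0, 16.9, 16.5, 9.69 and 17.6 FPKM, Model libraries 3.10, 5.30, 2.01, 0.720 and 2.39 FPKM, and LIPUS libraries 5.57, 2.02, 5.71, 8.56 and 3.61 FPKM. Every Model and every LIPUS library was below every Control library, whereas Model and LIPUS overlapped. Ctsk fell 6.13-fold in Model (log2 change -2.61 ± 0.45 SE, adjusted p = 0.000253, limma), where 41.4% of all tested genes had Model wholly below Control. The fall remained on scaled FPKM, at 3.59-fold (-1.84 ± 0.50, adjusted p = 0.00936), and there Model again lay wholly below Control, as for 18.3% of all genes. Leaving out any single library kept both calls, with adjusted p up to 0.00109 as deposited and 0.0253 scaled. Set against the lysosomal membrane gene Lamp1 in the same library, Ctsk overlapped between Model and Control. The difference in this log2 ratio was -2.86 (exact permutation test, two-sided, p = 0.0476, adjusted p = 0.0974). Model library 7, at -2.45, lay above every Control library (highest -3.08).

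Between LIPUS and Control, Ctsk was 3.10-fold lower as deposited (-1.63 ± 0.45, adjusted p = 0.00442, limma) and not called on scaled FPKM (-0.21 ± 0.50, adjusted p = 0.790). Between LIPUS and Model it was not called on either scale: the log2 change was 0.98 ± 0.45 (adjusted p = 0.122) as deposited and 1.63 ± 0.50 (adjusted p = 0.0666) scaled. LIPUS library 7 was the low point of its group. Without it, or without Model library 7, Ctsk was called higher in LIPUS than in Model on both scales (adjusted p 0.00853 to 0.0347).

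Stromal genes fell as well. All 5 fibrillar collagens and all 8 fibroblast markers fell in Model as deposited, where 43.1% of all tested genes did, and 5 and 6 of them on scaled FPKM, where 20.2% of all genes did. The summed level of the 8 fibroblast markers was 732 to 1343 FPKM in Control, 62.7 to 164 FPKM in Model and 80.2 to 212 FPKM in LIPUS, with none of the 8 at 0 in all libraries of a group. Col1a1, the main collagen chain of connective tissue, averaged 177 ± 63.1 FPKM among Control libraries, 1.89 ± 1.14 among Model libraries and 3.62 ± 0.886 among LIPUS libraries (SD, n = 5). Within a library, the log2 ratio of Ctsk to Col1a1 averaged -3.54 ± 0.39 (SD, n = 5) for Control, 0.45 ± 1.23 for Model and 0.37 ± 0.62 for LIPUS. Model and LIPUS both lay wholly above Control (differences 3.99 and 3.91, exact permutation test, two-sided, p = 0.00794 and adjusted p = 0.0397 for each). The part of the stromal markers in the fall of Ctsk was not tested.

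Ctsc encodes cathepsin C (dipeptidyl peptidase I), which activates the granule serine proteases of mast cells, neutrophils and cytotoxic lymphocytes. Both it and Ctss carry the letters GAGGAAGT, a core bound by the myeloid factor PU.1, on the opposite strand (ACTTCCTC, in capitals), at -248 from the start for Ctsc and at -17 for Ctss. These letters, on either strand, occurred in 2.42% of the 33469 promoter windows and in 2 of the 8 cathepsin windows. The sites are shown with their flanks from RefSeq (GRCr8, plus strand, chr1:151440799-151440828 for Ctsc and chr2:185775368-185775397 for Ctss, the latter inside the annotated span of the gene):
Ctsc site: taACTTCCTCaggccacaggtaattctatc
Ctss site: aatgaaagttcACTTCCTCgttgtggatac
Nothing in these data shows whether the factor binds there.

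Ctsc had the lowest mean FPKM of the 9 in each group. It lay below the next gene in 4 of 5 Control libraries (Ctsz), and in 2 of 5 Model and 4 of 5 LIPUS libraries (Ctsk). Control libraries 6 to 10 gave 2.61, 10.9, 5.91, 4.60 and 6.70 FPKM, Model libraries 1.58, 0.754, 2.28, 1.50 and 2.43 FPKM, and LIPUS libraries 2.42, 4.37, 2.99, 3.88 and 3.29 FPKM. Model lay wholly below Control and, but for Model library 10 and LIPUS library 6, which read almost the same, below LIPUS. Ctsc fell 3.33-fold in Model (log2 change -1.74 ± 0.38 SE, adjusted p = 0.00169, limma), with no call on scaled FPKM (-0.97 ± 0.41, adjusted p = 0.0759) unless Control library 6 was left out (-1.22, adjusted p = 0.0339). LIPUS against Model missed the threshold as deposited (1.02 ± 0.38, adjusted p = 0.0732) and was called on scaled FPKM (3.15-fold higher, 1.65 ± 0.41, adjusted p = 0.0380), where LIPUS lay wholly above Model, as for 1.63% of all genes. The scaled call was lost in 10 of the 15 fits that left out 1 library (adjusted p up to 0.0880) and with Model and LIPUS alone in the fit (0.149). LIPUS against Control was not called (-0.72 ± 0.38 as deposited, adjusted p = 0.0933, and 0.68 ± 0.41 scaled, adjusted p = 0.241).

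Of 5 tested granule serine proteases, the substrates of Ctsc, 3 fell in Model as deposited (Mcpt1l1, Tpsb2 and Tpsab1), against 43.1% of all tested genes, and 2 on scaled FPKM (Mcpt1l1 and Tpsb2), against 20.2%. The mast cell protease Mcpt1l1 averaged 28.9 ± 6.33 FPKM among Control libraries, 3.56 ± 2.70 among Model libraries and 9.43 ± 5.14 among LIPUS libraries (SD, n = 5), and was higher in LIPUS than in Model on scaled FPKM (adjusted p = 0.0361, limma). The neutrophil enzymes Elane and Prtn3 had at most 1 read in any library of any group, so no change could be detected at this depth. The summed level of the 6 mast cell markers was 14.7 to 21.6 FPKM in Control, 0.955 to 8.85 FPKM in Model and 2.43 to 24.3 FPKM in LIPUS. Their part in the changes of Ctsc was not tested.

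Ctss encodes cathepsin S, which cuts the invariant chain from class II molecules in antigen-presenting cells and stays active outside the acid lysosome. Its FPKM was 11.9, 19.6, 18.3, 15.4 and 11.4 in Control libraries 6 to 10, 11.8, 10.5, 6.06, 12.6 and 11.0 in Model, and 20.8, 18.8, 22.8, 28.8 and 16.8 in LIPUS. All LIPUS libraries exceeded all Model libraries, as for 0.536% of tested genes, while Control overlapped both. Ctss was 2.10-fold higher in LIPUS than in Model (log2 change 1.07 ± 0.27 SE, adjusted p = 0.0283, limma), and 3.30-fold on scaled FPKM (1.72 ± 0.28, adjusted p = 0.00761). The call as deposited was lost without Model library 6, 8, 9 or 10 or LIPUS library 6 (adjusted p 0.0508 to 0.0791), and when Control was kept out of the fit (0.143). On scaled FPKM it remained without any single library (adjusted p up to 0.0239), but not with Control kept out of the fit (0.0754), where 1 gene of 12490 was called.

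Against Control, Ctss in LIPUS was 1.42-fold higher as deposited, which was not called (0.50 ± 0.27, adjusted p = 0.0978, limma). On scaled FPKM it was 3.81-fold higher (1.93 ± 0.28, adjusted p = 0.000236), with LIPUS at 32.5, 16.7, 32.2, 43.1 and 54.2 scaled FPKM in libraries 6 to 10 and every Control library at 11.5 or less. All LIPUS libraries lay above all Control libraries, as for 11.2% of tested genes, and the call remained without any single library (adjusted p up to 0.00115). Model against Control was not called on either scale (-0.57 ± 0.27 as deposited, adjusted p = 0.0947, and 0.21 ± 0.28 scaled, adjusted p = 0.605).

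Of 17 macrophage markers, 7 were called higher and none lower in LIPUS against Model as deposited (Fcer1g, Csf1r, C1qb, C1qc, Mrc1, Itgam and C1qa), with a median log2 change of 0.96, where 1.31% of all tested genes were higher and their median was -0.60. On scaled FPKM 8 were higher, where 2.73% of all genes were. Their summed level was 148 to 241 FPKM in Control, 109 to 343 in Model and 196 to 481 in LIPUS as deposited, and 86.4 to 131, 117 to 295 and 221 to 721 on scaled FPKM. No marker of the list was at 0 throughout a group. C1qa, a complement subunit made by tissue macrophages, averaged 20.1 ± 3.13 FPKM among Control libraries, 24.2 ± 10.6 among Model libraries and 43.8 ± 8.06 among LIPUS libraries (SD, n = 5). The part of macrophage number in the level of Ctss was not tested.

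Ctss prepares class II molecules for loading. Of 7 class II genes tested, RT1-Bb was higher in LIPUS than in Model as deposited (log2 change 2.05, adjusted p = 0.0127, limma), where 1.31% of all tested genes were, joined on scaled FPKM by RT1-Da and RT1-Ba, where 2.73% were. Cd74, the invariant chain and substrate of Ctss, averaged 48.5 ± 4.84 FPKM among Control libraries, 56.5 ± 39.5 among Model libraries and 56.1 ± 29.0 among LIPUS libraries (SD, n = 5). The log2 ratio of Ctss to Cd74 within a library overlapped between all groups (LIPUS minus Model 0.77, exact permutation test, two-sided, p = 0.381).

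Ctsz encodes cathepsin Z (also cathepsin X), a carboxypeptidase made by monocytes and macrophages among other cells. In FPKM as deposited it hardly separated the groups, at 11.8, 10.1, 14.0, 11.9 and 10.8 in Control libraries 6 to 10, 13.2, 5.52, 8.93, 5.56 and 11.3 in Model, and 9.54, 14.0, 12.7, 13.0 and 4.98 in LIPUS. Its ranges overlapped in every comparison as deposited, and no change was called (adjusted p 0.245 to 0.593). On scaled FPKM, LIPUS libraries held 14.9, 12.5, 17.9, 19.4 and 16.1 and Control libraries at most 7.65. This was 2.35-fold (log2 change 1.23 ± 0.25 SE, adjusted p = 0.00210, limma), a call that remained without any single library (adjusted p up to 0.00716). The scaled change of Model against Control was not called (0.30 ± 0.25, adjusted p = 0.370). The scaled difference of LIPUS from Model, 0.93 ± 0.25 (adjusted p = 0.0462), was lost in 12 of the 15 fits that left out 1 library (adjusted p up to 0.120).

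Ctsb encodes cathepsin B, which acts both as an endopeptidase and as a carboxydipeptidase. Control libraries 6 to 10 lay close together, at 60.9, 67.1, 83.4, 74.4 and 62.1 FPKM. Model libraries read 44.5, 62.5, 36.9, 39.8 and 42.4 FPKM, with library 7 alone in the Control range, and LIPUS libraries split into 99.7 and 115 FPKM (libraries 6 and 9) and 35.1, 46.6 and 36.0 FPKM (libraries 7, 8 and 10). Model against Control was not called in the fit of all groups (log2 change -0.64 ± 0.33 SE, adjusted p = 0.121, limma), but was with LIPUS kept out of the fit (adjusted p = 0.00820), and its sign turned on scaled FPKM (0.14 ± 0.35, adjusted p = 0.785). LIPUS against Control was -0.24 ± 0.33 (adjusted p = 0.497) as deposited and 1.19 ± 0.35 (adjusted p = 0.0224) on scaled FPKM. LIPUS against Model was not called as deposited (0.39 ± 0.33, adjusted p = 0.381) or scaled (1.05 ± 0.35, adjusted p = 0.0896), but the latter became a call without Model library 7 (1.12, adjusted p = 0.0339) or LIPUS library 7 (1.44, adjusted p = 0.00509). The scaled call against Control was lost without Control library 10, LIPUS library 6 or LIPUS library 9 (adjusted p 0.0510 to 0.0554).

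The make-up of the cathepsin RNA pool does not depend on library scaling. The 9 genes summed to 506 to 669 FPKM in Control, 165 to 672 in Model and 201 to 510 in LIPUS, the lowest Model value being library 7 and the lowest LIPUS value library 10. Ctsd and Ctsl together made up 56.6% to 61.9% of the pool in Control, 62.9% to 73.6% in the Model libraries other than 7, 34.5% in Model library 7 and 35.1% to 56.4% in LIPUS. Ctss made up 2.10% to 3.28% in Control, 1.42% to 2.25% in the Model libraries other than 7, 6.34% in Model library 7 and 5.64% to 8.35% in LIPUS. Model library 7 thus held a share of Ctss within the LIPUS range.

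Ctsb took 11.2% to 12.8% of the pool in Control, 5.93% to 8.65% in the Model libraries other than 7, 37.8% in library 7, and 10.8% to 32.7% in LIPUS. Ctsk took 1.67% to 3.25% in Control, 0.107% to 0.593% in the Model libraries other than 7, 3.21% in library 7 and 0.622% to 1.83% in LIPUS. For Ctsb and for Ctsk the 4 other Model libraries sat on 1 side of Control and library 7 did not join them. Shares are descriptions, with no test.

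**Figure D3:**
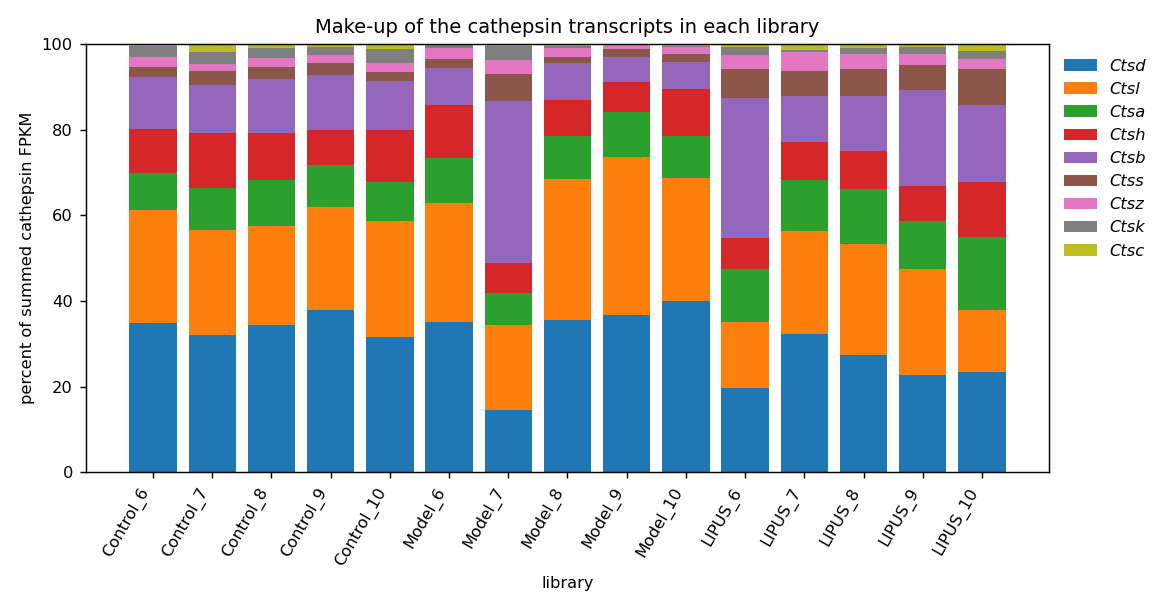
Percent of the summed cathepsin FPKM (vertical axis) taken by each of the 9 genes in each of the 15 libraries. Ctsd and Ctsl fill 56.6% to 61.9% of every Control bar, and Model library 7 differs from the other Model libraries, with 37.8% Ctsb.

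A second ratio set each cathepsin against Lamp1, the abundant lysosomal membrane protein, in the same library. Lamp1 averaged 154 ± 6.90 FPKM among Control libraries, 238 ± 124 among Model libraries and 66.4 ± 35.4 among LIPUS libraries (SD, n = 5), lower in LIPUS than in Control as deposited (adjusted p = 0.0318, limma) and not on scaled FPKM (adjusted p = 0.996). The log2 ratio of Ctsd to Lamp1 was 0.28, 0.24, 0.59, 0.46 and 0.20 in Control libraries 6 to 10, -0.55, -0.30, -0.67, -0.51 and -0.17 in Model, and 0.61, 0.20, 0.36, 0.17 and 1.22 in LIPUS. All 5 Model libraries, library 7 included, lay below all Control and all LIPUS libraries. The difference was -0.80 for Model against Control and 0.95 for LIPUS against Model (exact permutation test, two-sided, p = 0.00794 and adjusted p = 0.0397 for each). Set against Psap in place of Lamp1, Ctsd did not separate the groups, which overlapped in every comparison. The log2 ratio of Ctsd to Psap differed by -0.14 for Model against Control, 0.23 for LIPUS against Model and 0.091 for LIPUS against Control. None of these was called (exact permutation tests, two-sided, lowest p = 0.254, adjusted p = 0.381). The separation of Ctsd in Model was thus seen against Lamp1 and not against Psap.

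Ctss to Lamp1 was -3.35 ± 0.30 (SD, n = 5) in Control and -1.41 ± 0.81 in LIPUS, and Ctsz to Lamp1 was -3.71 ± 0.20 and -2.46 ± 0.44. LIPUS lay wholly above Control for both, by 1.94 and 1.25 on the log2 scale (exact permutation test, two-sided, adjusted p = 0.0397 for each). LIPUS also lay wholly above Model for Ctsa to Lamp1 (1.68) and Ctsc to Lamp1 (2.70), each with an adjusted p of 0.0397 by the same exact test. In all, 9 of 45 ratio tests had an adjusted p under 0.05, each at 0.00794, the smallest p that a comparison of 5 libraries against 5 allows. All 9 lost the call with a pseudocount of 1 in place of 0.1 (adjusted p 0.0510 to 0.0824). With any 1 library of the groups compared left out, a check chosen after seeing the data, the adjusted p of these 9 lay between 0.0179 and 0.0714. Most of these fits, 57 in number, thus lost the call. Groups that do not overlap stay apart when a library is left out, so their separation could not be checked in this way.

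**Figure D4:**
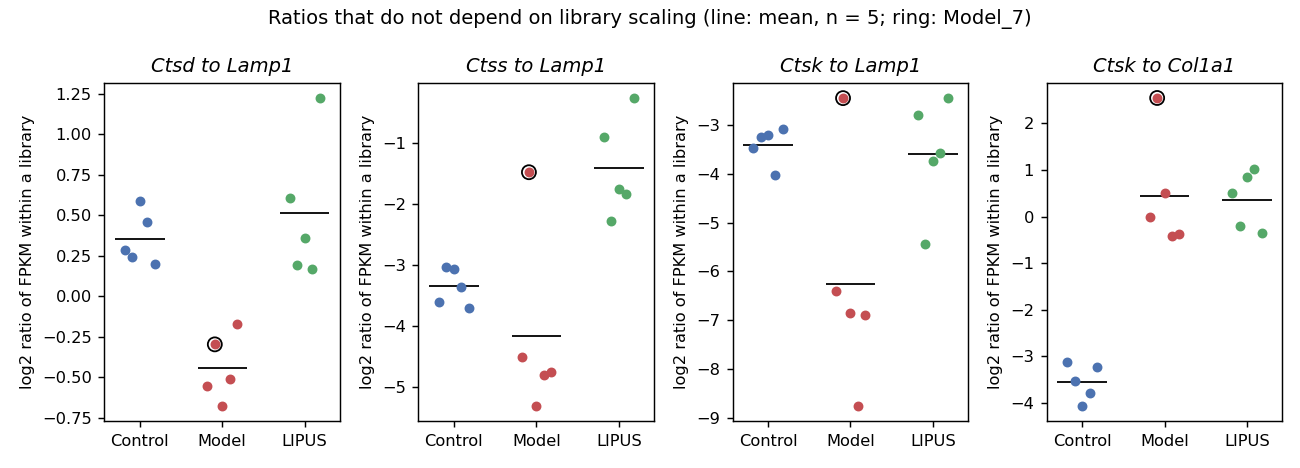
Log2 ratio of FPKM within a library (vertical axes) for Ctsd, Ctss and Ctsk against Lamp1 and for Ctsk against Col1a1, with 5 libraries a group, lines at the means and a ring on Model library 7. Ctsd to Lamp1 is below 0 in all 5 Model libraries and above 0 in the other 10. The mean ratio to Lamp1 was lower in Model than in Control for every cathepsin. For Ctsk to Lamp1, Model and Control overlap.

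The remaining cathepsins were few. Of the 4 tested, Ctsf (cathepsin F, another papain-family endopeptidase) fell from a Control mean of 12.0 ± 1.35 FPKM to a Model mean of 3.69 ± 1.15 (SD, n = 5), by 1.73 on the log2 scale as deposited (adjusted p = 0.00156, limma) and by 0.96 scaled (adjusted p = 0.00971). Ctse, an endosomal aspartic protease related to Ctsd, spanned 3.40 to 105 FPKM in Control, 0.815 to 16.0 FPKM in Model and 35.9 to 57.5 FPKM in LIPUS. It was higher in LIPUS than in Model on both scales (log2 change 3.76, adjusted p = 0.0250, and 4.41, adjusted p = 0.0147).

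The 6 tested genes listed as cathepsin inhibitors gave 1 call in Model against Control on each scale. Of all 12490 tested genes, 5750 were called there as deposited and 4437 on scaled FPKM. Serpinb1a fell in Model as deposited (log2 change -2.24, adjusted p = 0.0130, limma). Cst6 (cystatin M) fell in LIPUS against Model as deposited (-1.39, adjusted p = 0.0306) and was higher in Model than in Control when scaled (0.97, adjusted p = 0.0166). Cstb, the cytosolic cystatin B, was higher in LIPUS than in Control when scaled (0.76, adjusted p = 0.0272). Cst3, the abundant secreted cystatin C, stood at 187 ± 56.4, 112 ± 32.7 and 143 ± 63.0 FPKM in Control, Model and LIPUS (SD, n = 5), with no call. The log2 ratios of Ctsb and of Ctsl to Cst3 gave no call in any comparison (exact permutation tests, two-sided, lowest p = 0.0317, adjusted p = 0.0840).

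A list of 10 genes covered protease processing and delivery to lysosomes, not all of them specific to cathepsins. Of these, 6 were lower in Model as deposited, against 43.1% of all tested genes. On scaled FPKM 4 were lower (Scarb2, Gnptab, M6pr and Sort1), against 20.2%. Their median log2 change was -1.38 as deposited, against -0.57 for the 9 cathepsins and -0.90 for all tested genes. M6pr, the small mannose 6-phosphate receptor, averaged 79.1 FPKM (75.5 to 83.3) in Control, 22.2 FPKM (14.9 to 26.9) in Model and 15.8 FPKM (6.79 to 20.5) in LIPUS. Model and LIPUS both lay wholly below Control, as for 41.4% and 59.4% of all tested genes. Gnptab, a subunit of the enzyme that builds the mannose 6-phosphate tag, averaged 3.51 ± 0.224 FPKM among Control libraries, 0.208 ± 0.0837 among Model libraries and 0.240 ± 0.157 among LIPUS libraries (SD, n = 5), 1 of which was at 0. Sort1 (sortilin), the other carrier, went from 52.7 ± 3.90 to 11.8 ± 5.99 and 7.81 ± 3.92 FPKM in the same order. For these 3, both Model and LIPUS were lower than Control on either scale (adjusted p up to 0.0266, limma). Gnptab passed the filter of above 0.5 FPKM in at least 5 libraries only through Control, so its calls are not independent of that filter. Lgmn (legumain), which cleaves cathepsin precursors, was higher in LIPUS than in Control when scaled (log2 change 1.21, adjusted p = 0.0288).

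Of 14 genes of the lysosomal membrane and proton pump, 6 were lower in Model as deposited, a share near the 43.1% of all tested genes. On scaled FPKM 2 were lower (Atp6ap2 and Cd63), where 20.2% of all genes were. On that scale 1 was higher (Atp6v0d2), where 1912 of all 12490 tested genes were. Atp6ap2, an accessory pump subunit, averaged 25.0 ± 2.35 FPKM among Control libraries, 2.90 ± 1.21 among Model libraries and 7.80 ± 2.63 among LIPUS libraries (SD, n = 5), higher in LIPUS than in Model on both scales (adjusted p = 0.0250 and 0.00601, limma). Of 20 lysosomal glycosidases, sulfatases and lipases, 10 were lower in Model as deposited and 5 scaled, shares near the 43.1% and 20.2% of all tested genes, led by the mannosidase Man2b1 (log2 change -2.97, adjusted p = 5.85e-06, and -2.19 scaled). Against Control, 15 of these 20 were lower in LIPUS as deposited, near the 74.4% of all tested genes. On scaled FPKM Gaa was lower and Lipa higher, where 1782 and 1448 of all 12490 tested genes were. Of the TFEB family, Tfe3 was lower in Model on both scales (-1.42, adjusted p = 0.00773, and -0.66 scaled, adjusted p = 0.0355), while Tfeb and Mitf were not called in that comparison.

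Across the 15 libraries, the cathepsins followed different companions on log2 scaled FPKM. These Pearson correlations are descriptions over libraries that share group and depth. The genes most like Ctsd were Epcam (0.97), Ormdl3 and Lsr, the first an adhesion protein of epithelial cells. Those most like Ctsl were Ostc (0.97), Tmed9 and Tm2d2, where Ostc serves glycosylation in the endoplasmic reticulum. Ctss was most like C1qc (0.93), Adgre1 and Clec10a, and Ctsz most like C1qa (0.93), C1qb and Fcna. For Ctsb these were Apoe (0.92), Pltp and Gpx3, and for Ctsc Mcoln3 (0.91), Mrc1 and Tf. The top 3 were Mppe1 (0.94), Erlec1 and Blnk for Ctsa, Enpp5 (0.94), Pcp4 and P3h3 for Ctsh, and Smg6 (0.92), Zfp710 and Mamdc2 for Ctsk. After each group's mean was removed, the correlations with these 3 genes were 0.69, 0.85 and 0.59 for Ctss, and 0.78, 0.75 and 0.81 for Ctsz, in the order named, and 0.97 or 0.98 for each of those of Ctsd and Ctsl. Model library 7 lay far below the other Model libraries in scaled FPKM of Ctsd (20.6 against 167 to 264) and Ctsl (28.5 against 149 to 265). How far the correlations of Ctsd and Ctsl rest on that library was not tested.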

How the data were processed

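Prostate RNA of 15 samples was analysed from the deposited table of FPKM values, which the authors made from their reads. Per the labels' protocols, the RNA was total RNA from a TRIzol extraction, and the library kit was VAHTS Universal V5. Per the submitters' processing notes, fastp, HISAT2, HTSeq, SAMtools, R 3.2.0, DESeq2 and the rat build rn6 were used. Their roles and the strand setting are not given in the sources used here, so overlapping and antisense genes cannot be told apart.

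Whole reads were recovered from the deposited FPKM: all 241151 values above 0 gave whole reads within 0.001 of a whole number. They served for depth and mitochondrial shares. A count of 0 allows up to 3 reads, or 0.0412 to 0.0505 FPKM for a gene of 2 kb, a limit of counting error alone. Libraries of a group differed well beyond sampling noise, with a chi-square per degree of freedom of at least 80.3.

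Genes above 0.5 FPKM in at least 5 of 15 libraries were fitted on log2(FPKM + 0.1) with limma 3.58.1 in R 4.3.3, with 1 mean per group and a trend of spread with level, and p-values were adjusted by Benjamini-Hochberg across 12490 genes. Fold changes are on that scale and understate those of low genes. Scaled FPKM used median-of-ratios factors from 10313 genes above 0 in every library. Ratios within a library were compared by exact permutation in Python 3.11.15 with pandas 2.3.3. Promoter windows came from RefSeq (GRCr8), with 8 of 9 cathepsins matched by symbol.

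The 9 cathepsins are all described. Genes outside them are named where their list was called, where they partner a cathepsin in a ratio, or as the 3 most correlated genes of each. Up to 4 genes of a list with the smallest adjusted p are named. Members and lists were chosen with earlier results of these data known. Alternatives covered scaling, filter, pseudocount, the libraries fitted, array weights, the replicate block and leaving out each library.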

Additional observations from a re-analysis of the deposited data

Results flagged for a closer look

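A library far from the other 4 of its group was looked for in 54 groups of values, of which chance alone would flag about 5%. In Model library 7, Ctsa (3.62), Ctsd (4.59) and Ctsl (5.05) lay far below the rest on the log2(FPKM + 0.1) scale. The same library stood apart in its percent of summed cathepsin FPKM, low for Ctsa (7.39%) and Ctsd (14.5%) and high for Ctsb (37.8%), Ctsk (3.21%) and Ctss (6.34%). These values share 1 library and its sum, so they are not separate observations. That library also had the ventral and dorsolateral gene shares that set it apart from its group, whose part in these values was not tested.

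In Model library 8, Ctss was low, at 2.62 on the log2(FPKM + 0.1) scale. In LIPUS library 10, the library with the largest mitochondrial share, Ctsa took 17.2% of the cathepsin FPKM, above the rest of its group. In LIPUS library 7, Ctsk took 0.622%, below the rest.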

How the results depend on the processing

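Cathepsins called for Model against Control numbered 2 as deposited and 1 with median-of-ratios or quantile scaling. Genes called there numbered 5750, with 3379 under the stricter filter and 8953 with array weights. For LIPUS against Model, 1 cathepsin was called in limma, with 3 under median-of-ratios, quantile or non-mitochondrial scaling, 4 with array weights, and 0 when the fit held just those groups or had the replicate block (2 at an unadjusted p under 0.05 in each). Genes called there numbered 1820, with 812 without a filter, 527, 479 and 261 under the 3 scalings, 3637 with array weights, and 3 when the fit held just those groups or had the block. On scaled FPKM, 3 cathepsins and 527 genes became 1 and 128 with the block, and 0 (5 at an unadjusted p under 0.05) and 1 when the fit held just those groups, an alternative chosen after seeing the data. For LIPUS against Control, 4 cathepsins became 2 without a filter and under quantile or non-mitochondrial scaling, and 9415 genes became 3230, 3264 and 3006 under the 3 scalings.

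The log2 changes that turned sign were as follows. For Model against Control, median-of-ratios scaling gave Ctsa 0.40, Ctsb 0.14, Ctsd 0.23, Ctsh 0.087, Ctsl 0.58, Ctss 0.21 and Ctsz 0.30, quantile scaling Ctsl 0.00092, Ctss 0.12 and Ctsz 0.31, non-mitochondrial scaling Ctsl 0.039, and array weights Ctsa 0.027 and Ctsl 0.18. For LIPUS against Model, median-of-ratios gave Ctsa 0.64 and Ctsh 0.26, quantile Ctsa 0.68, Ctsd 0.053 and Ctsh 0.30, and non-mitochondrial Ctsa 0.90, Ctsd 0.18 and Ctsh 0.51. For LIPUS against Control, median-of-ratios gave Ctsa 1.05, Ctsb 1.19, Ctsc 0.68, Ctsd 0.15, Ctsh 0.34, Ctsl 0.31 and Ctsz 1.23, quantile Ctsa 0.66, Ctsb 0.76, Ctsc 0.80 and Ctsz 1.20, non-mitochondrial Ctsa 0.76, Ctsb 0.90, Ctsc 0.40, Ctsh 0.056, Ctsl 0.024 and Ctsz 0.94, and array weights Ctsb 0.069 and Ctsz 0.021. The cause was not tested.

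Leaving out 1 library, cathepsins called ranged from 0 to 5 for LIPUS against Model (1 to 7 scaled), from 2 to 4 for LIPUS against Control, and from 1 to 4 for Model against Control scaled. Genes called for LIPUS against Model ranged from 8 to 4576 (115 to 4001 scaled). The highest counts for LIPUS against Model came without Model library 7. Log2 changes that turned sign ranged, for Model against Control, from -0.56 to 0.071 for Ctsa, -0.79 to 0.072 for Ctsd and -0.44 to 0.28 for Ctsl, and scaled from -0.015 to 0.90 for Ctsd and -0.12 to 0.58 for Ctsh. For LIPUS against Model they ranged from -0.46 to 0.18 for Ctsa, and scaled from -0.75 to 0.17 for Ctsd, -0.23 to 0.46 for Ctsh and -0.80 to 0.00070 for Ctsl. For LIPUS against Control they ranged from -0.30 to 0.064 for Ctsz, and scaled from -0.42 to 0.27 for Ctsk. Ratios that turned sign, none of them called with all libraries, ranged for Ctsb to Cst3 from -0.23 to 0.22 (Model against Control), -0.20 to 0.42 (LIPUS against Model) and -0.084 to 0.49 (LIPUS against Control). They ranged from -0.98 to 0.049 for Ctss to Cd74 (Model against Control), -0.022 to 0.24 for Ctsd to Lamp1 and -0.48 to 0.26 for Ctsk to Lamp1 (LIPUS against Control), and -0.30 to 0.44 for Ctsk to Col1a1 (LIPUS against Model).

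The labels number the libraries 6 to 10 in each group, but same-numbered libraries did not deviate together: the correlations of their deviations ran from -0.42 to 0.07 for Model against Control, -0.32 to 0.21 for LIPUS against Model and -0.11 to 0.25 for LIPUS against Control. The block was therefore not read as a pairing. Ctsk was covered by as few as 34 reads, which limits its precision in Model.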
